A study of Mus musculus with 9 samples.

Results

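The genes described here are 10 imprinted genes with roles in growth: Igf2, H19, Dlk1, Meg3, Cdkn1c, Peg3, Mest, Plagl1, Grb10 and Igf2r. They were taken by name, and every probe set annotated to them on the array was included, which gave 32 of 45037 probe sets and 10 of 18193 named genes. Cdkn1c, H19 and Mest had 1 probe set each, Dlk1 and Igf2 had 2, Grb10, Igf2r and Plagl1 had 3, Peg3 had 5 and Meg3 had 11. The H19 probe set is annotated jointly to H19 and to Mir675, the microRNA made from the H19 transcript, and 1 of the Igf2r probe sets is annotated jointly to Airn. The cells were cardiomyocytes made from mouse embryonic stem cells and kept for 10, 20 or 30 days, with 3 arrays at each age. All 3 ages used the synp line, a derivative of R1 cells (129X1 x 129S1 background) in which the Ncx1 promoter drives PAC, a puromycin resistance gene. Ncx1 is listed in the annotation as Slc8a1 and encodes the cardiac sodium-calcium exchanger. Every culture received Activin A and BMP4 as well as VEGF, FGF10 and bFGF, with puromycin from day 7, so no age lacks the selection and all come from 1 line.

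Imprinted genes are transcribed mainly from the copy inherited from 1 parent, under control regions whose DNA methylation differs between the parental copies. Many paternally expressed genes promote growth of the embryo and placenta, while many maternally expressed genes restrain it, and several of both kinds are strongly transcribed in the fetus and silenced after birth. Igf2, Dlk1, Peg3, Mest and Plagl1 are expressed mainly from the paternal copy in most mouse tissues, and H19, Meg3, Cdkn1c, Grb10 and Igf2r mainly from the maternal copy. The array does not tell the copies apart, so the values below are totals over both.

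The values are deposited log2 signals, 1 per probe set and array, so a difference of 1 is a 2-fold difference. Array medians ran from 5.48 to 5.56, and the highest value of an array was between 14.17 and 14.52. The labels do not say whether the arrays of an age came from separate differentiations, so the p-values reflect only how far these arrays scatter, and that scatter may be technical. In RNA from whole cultures, fewer cells of a type and less RNA per cell cannot be told apart. The 13 cardiomyocyte markers averaged 11.65 to 12.45 in day 10 arrays, 12.27 to 12.55 in day 20 arrays and 12.40 to 12.60 in day 30 arrays, and 2 rose and 0 fell at day 30 against day 10. Leaving out replicate 3 of day 10 gave 5 that rose, and leaving out replicate 1 of day 30 gave 1 that fell. The latter was Slc8a1, whose promoter drives the selection (limma adjusted p = 0.0260). With all arrays Slc8a1 differed by -1.46 at day 20 and -1.13 at day 30 against day 10. Neither difference passed (limma adjusted p = 0.052 and 0.088). The 12 fibroblast and matrix markers averaged 7.19 to 7.53, 10.39 to 11.43 and 11.87 to 12.01 at these ages. Of them, 10 rose and 0 fell at day 30 against day 10, with a median difference of 4.14, and Dcn, which encodes the matrix proteoglycan decorin, rose by 6.73. Over all genes, 10.3% were called higher and 8.91% lower in that comparison. The 8 pluripotency markers averaged 5.57 to 6.83 at day 10, 4.28 to 4.51 at day 20 and 4.25 to 4.40 at day 30. By the control probe sets, 3 arrays stood apart. Day 30 replicate 2 had an 18S ribosomal RNA signal of 10.27, against 12.07 to 13.44 in the other arrays, and the highest 3-prime minus 5-prime difference of actin, 0.79 against 0.23 to 0.59. Day 10 replicates 2 and 3 had the lowest means over 15 poly-A control probe sets, 4.89 and 4.79, against 5.42 to 5.99 in the other arrays. Many calls that turn on 1 array are given below with and without it. The marker shifts ran over the same days as every result below, and their part in those results was not tested.

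Each gene was represented by its brightest probe set. At day 30 against day 10, 1 gene rose (Dlk1) and 4 fell (Cdkn1c, Igf2r, Peg3 and Mest), so 5 of 10 passed an adjusted p of 0.05 in limma, against 19.2% of all genes (10.3% higher and 8.91% lower). The 10 genes were chosen with earlier results of these data known, so this contrast is not independent. Except for Igf2r, their brightest probe sets stood at the 95.9th percentile of signal or higher, while the share includes dim genes. Of the 32 probe sets, 2 rose and 9 fell, against 15.1% of all probe sets called in either direction (7.40% higher and 7.73% lower). Igf2, H19, Meg3, Plagl1 and Grb10 did not pass. The median difference was -0.37 over the 10 genes and -0.03 over all genes. Of the 5 paternally expressed genes 1 rose and 2 fell, and of the 5 maternally expressed genes 0 rose and 2 fell. At day 20 against day 10, 1 gene rose and 4 fell, against 11.6% of all genes called (6.31% higher and 5.30% lower). These were the 5 genes named for day 30. Both contrasts subtract the same day 10 arrays and share 1 estimate of the spread, so this recurrence is not independent. Of the probe sets, 1 rose and 8 fell at day 20 against day 10, against 9.02% of all probe sets (4.51% in each direction). At day 30 against day 20 limma called 0 of the 10 genes, against 0.154% of all genes, and 0 of the 32 probe sets, against 0.135%, with 2 genes and 3 probe sets at an unadjusted p under 0.05. With the replicate number as a block and only the arrays of these ages, 0 genes and 0 probe sets of the 10 genes were called. A moderated F test over the 3 ages called 5 of the 10 genes, against 15.4% of all genes.

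**Figure D1:**
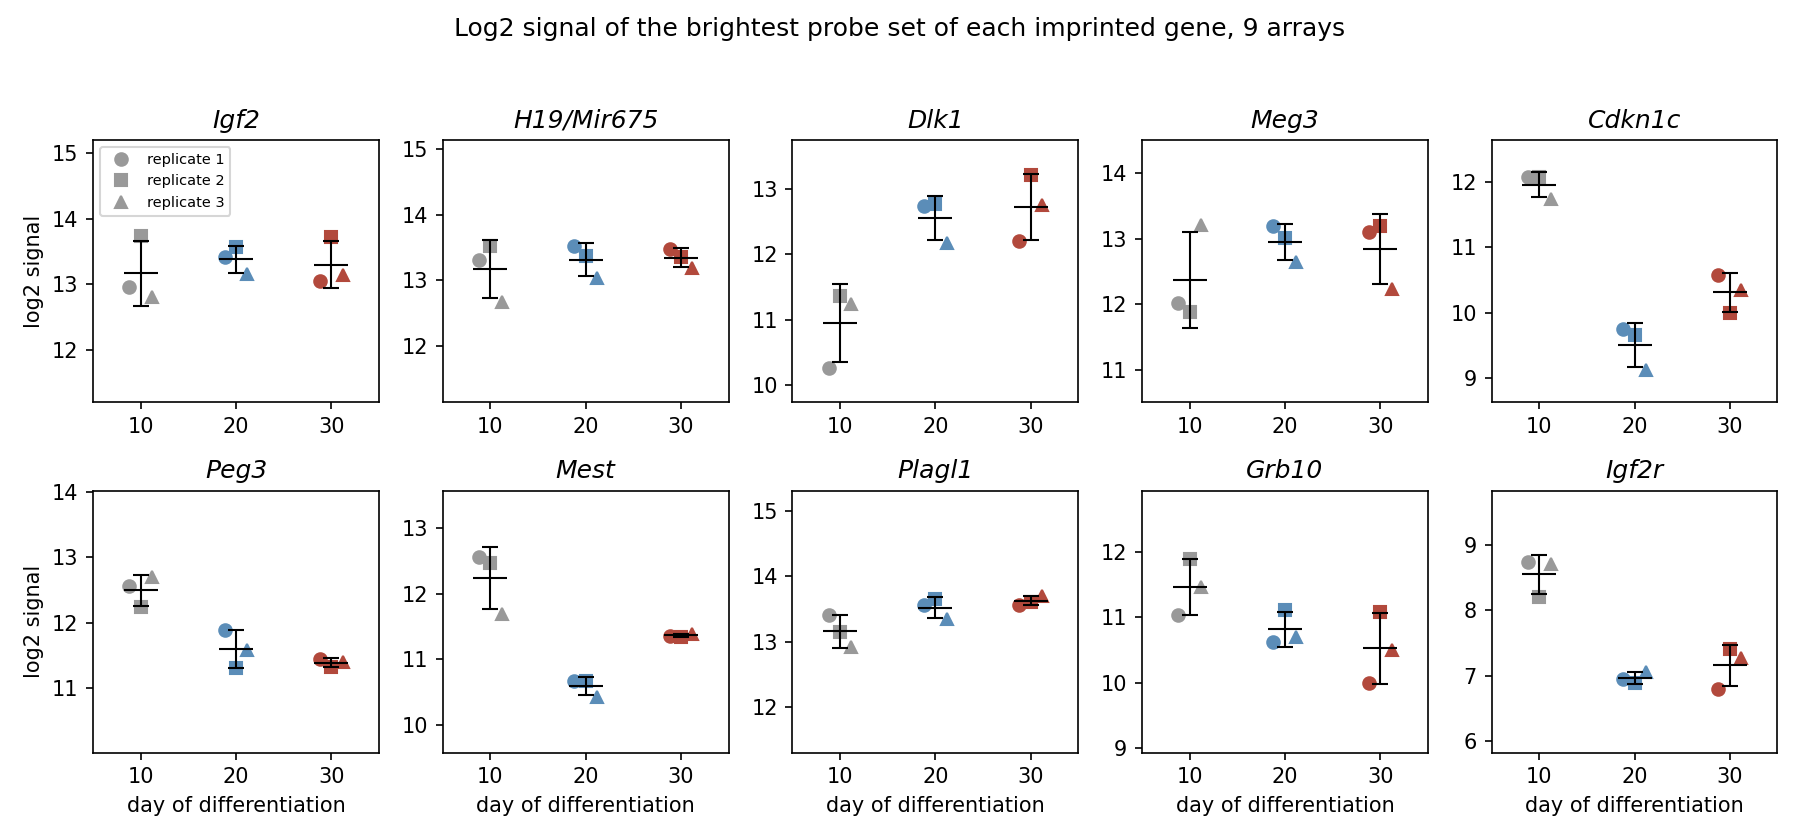
Deposited log2 signal of the brightest probe set of each of the 10 genes in every array at day 10, 20 and 30. Points are arrays (3 per age), short lines are means and whiskers are SD, and every panel spans 4 log2 units. Dlk1 sits higher and Cdkn1c, Igf2r, Peg3 and Mest sit lower in all day 30 arrays than in all day 10 arrays, while the ages of Igf2, H19, Meg3 and Grb10 overlap.

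Igf2 encodes a secreted growth factor that drives fetal growth through the receptors Igf1r and Insr. Its brighter probe set, 1448152_at, read 12.96, 13.73 and 12.81 in the day 10 arrays, 13.42, 13.57 and 13.16 in the day 20 arrays, and 13.05, 13.72 and 13.14 in the day 30 arrays. The ages overlapped, and the mean over the 9 arrays exceeded that of 99.8% of probe sets. The mean was 13.30 ± 0.36 at day 30 and 13.17 ± 0.50 at day 10 (SD, n = 3 each). The difference of 0.13 had a 95% interval of -0.49 to 0.75 (limma adjusted p = 0.80). The dimmer Igf2 probe set, 1415931_at, read 8.32, 9.55 and 7.88 at day 10, 8.59, 7.55 and 7.64 at day 20, and 7.73, 7.05 and 7.49 at day 30. All its day 30 values lay below all its day 10 values, but the difference of -1.16 (SE 0.45) did not pass (limma adjusted p = 0.125). Of the 9 fits that left out 1 array, 1 called it, that without day 10 replicate 3 (limma adjusted p = 0.0479). The dimmer minus the brighter probe set changed by -1.29 between day 10 and day 30, which an exact permutation test over the 280 splits of the arrays into 3 ages did not separate from the spread (p = 0.104). That contrast was chosen after the values were seen.

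Igf2r encodes a receptor that binds Igf2 and carries it to the lysosome, which lowers the amount of free growth factor. Its brightest probe set, 1424112_at, read 8.74, 8.21 and 8.71 in the day 10 arrays, 6.96, 6.89 and 7.07 in the day 20 arrays, and 6.81, 7.41 and 7.28 in the day 30 arrays. Every day 20 and day 30 array was below every day 10 array, and the later ages overlapped each other. Igf2r fell by 1.39 at day 30 against day 10 (SE 0.19, a 2.62-fold fall, limma adjusted p = 0.00311) and by 1.58 at day 20 against day 10 (limma adjusted p = 0.00382). Both calls held in all fits that left out 1 array. The second probe set, 1424111_at, also fell, by 1.14 at day 30 (limma adjusted p = 0.0164) and by 1.38 at day 20 (limma adjusted p = 0.0131). Its day 30 call was lost without day 30 replicate 1 or replicate 3 (highest adjusted p = 0.0560 in limma), and its day 20 call without day 20 replicate 2 (limma adjusted p = 0.0527).

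The probe set annotated jointly to Airn and Igf2r, 1440979_at, read 7.01, 7.38 and 8.04 at day 10, 6.67, 5.74 and 5.93 at day 20, and 6.48, 5.59 and 5.84 at day 30. Airn is a long noncoding RNA transcribed from the paternal copy, antisense to Igf2r, and it silences Igf2r there. This shared probe set fell by 1.51 at day 30 against day 10 (limma adjusted p = 0.0247), a call lost when replicate 2 of day 10 or replicates 2 or 3 of day 30 were left out (limma adjusted p up to 0.0808). The signal cannot be assigned to either transcript. The probe set annotated to Airn alone averaged 10.25 ± 0.40 at day 30 and 11.12 ± 0.70 at day 10 (SD, n = 3 each), a difference of -0.87 that did not pass (limma adjusted p = 0.129). The start regions of both genes are shown because their transcripts meet at a shared probe set. The RefSeq windows of GRCm38.p6 run from 250 bases before to 50 after the annotated start. The Igf2r window, chr17:12769657-12769956 on the minus strand, holds 34 CpG pairs, and the Airn window, chr17:12741061-12741360 on the plus strand, holds 3, against a median of 7 over 32851 windows. Capitals mark TATAAA or its reverse complement TTTATA, which 13.6% of all windows hold on either strand.
Igf2r: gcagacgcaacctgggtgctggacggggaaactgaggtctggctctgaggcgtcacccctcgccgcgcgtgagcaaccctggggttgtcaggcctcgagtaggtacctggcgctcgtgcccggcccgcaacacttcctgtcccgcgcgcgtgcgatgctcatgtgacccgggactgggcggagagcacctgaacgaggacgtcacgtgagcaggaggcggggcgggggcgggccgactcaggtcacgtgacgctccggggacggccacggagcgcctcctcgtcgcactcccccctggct
Airn: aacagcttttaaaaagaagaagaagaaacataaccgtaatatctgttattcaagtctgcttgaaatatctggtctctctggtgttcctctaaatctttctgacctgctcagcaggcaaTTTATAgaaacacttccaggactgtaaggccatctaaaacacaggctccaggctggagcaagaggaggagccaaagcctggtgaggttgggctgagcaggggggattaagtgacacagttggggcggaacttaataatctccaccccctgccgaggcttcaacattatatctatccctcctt
The Igf2r window held none of the motifs searched, and the Airn window held TTTATA once. The other motifs searched, on both strands, were GGGGCCCC (a Plagl1 site), GCCATNTT (YY1) and TGACGTCA (the cyclic AMP response element, added after windows had been seen). A loose form of the MEF2 motif, CTA and TAG separated by any 4 bases, was also searched. A match describes the letters only. Of the 10 genes, 8 had a window in this table.

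Within an array, the Igf2 signal minus the Igf2r signal was 4.22, 5.53 and 4.10 at day 10, 6.46, 6.68 and 6.09 at day 20, and 6.24, 6.31 and 5.86 at day 30. This quantity compares the change of both genes and says nothing of their relative abundance. Every day 20 and day 30 array lay above every day 10 array, and the change was 1.52 at day 30 and 1.80 at day 20 against day 10. An exact permutation test over the 280 splits gave p = 0.0107, or 0.0321 adjusted over the 3 gene pairs tested, where 0.00357 is the smallest p possible. At day 30 against day 10 Igf2 itself differed by 0.13 and Igf2r by -1.39. The test therefore mostly restates the fall of Igf2r on the same arrays. With Igf2 and Igf2r each taken as the mean of their own probe sets, without the one shared with Airn, the change at day 30 was 0.75 and the adjusted p in the exact test was 0.129. With the shared probe set included the change was 0.83 and the adjusted p in the exact test was 0.146. Leaving out 1 array gave changes from 1.26 to 1.97 with adjusted p from 0.0321 to 0.171 in the exact test, and the call was lost without any of the day 20 or day 30 arrays.

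H19 is a maternally expressed noncoding RNA that shares enhancers with Igf2, and its first exon carries the hairpin of miR-675. The H19/Mir675 probe set, 1448194_a_at, read 13.31, 13.52 and 12.66 in the day 10 arrays, 13.53, 13.37 and 13.03 in the day 20 arrays, and 13.47, 13.36 and 13.18 in the day 30 arrays. The ages overlapped, and day 10 replicate 3 was the lowest array. The difference at day 30 against day 10 was 0.17 (95% interval -0.34 to 0.69, limma adjusted p = 0.68). The Igf2 minus H19 signal changed by -0.04 between day 10 and day 30 (exact permutation p = 0.889, adjusted p = 0.889). The mature microRNAs of the shared annotation are shown with their seeds, bases 2 to 8, in capitals. RefSeq places the hairpin's 5-prime product at chr7:142577112-142577133 and its 3-prime product at chr7:142577078-142577099, both on the minus strand of GRCm38.p6.
miR-675-5p: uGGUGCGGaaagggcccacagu
miR-675-3p: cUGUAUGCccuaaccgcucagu
The seeds of both differ from each other, and among 1738 mouse mature microRNAs in the table each is held by 1, itself. The array labels total RNA by priming from the 3-prime end of transcripts, so the probe set is no measure of mature miR-675.

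Dlk1 and Meg3 lie in 1 imprinted cluster on chromosome 12. Dlk1 encodes a membrane protein of the Notch ligand family that keeps precursor cells undifferentiated, and Meg3 is a maternally expressed long noncoding RNA. The brighter Dlk1 probe set, 1449939_s_at, read 10.26, 11.35 and 11.23 at day 10, 12.73, 12.77 and 12.16 at day 20, and 12.19, 13.20 and 12.75 at day 30. All later arrays were above all day 10 arrays, and day 20 and day 30 overlapped. Dlk1 rose by 1.77 at day 30 against day 10 (SE 0.35, 3.40-fold, limma adjusted p = 0.0133), and this call held without any 1 array. It rose by 1.60 at day 20 against day 10 (limma adjusted p = 0.0291), a call that was lost without day 10 replicate 1, any of the day 20 arrays or day 30 replicate 3 (adjusted p up to 0.107 in limma). The dim second probe set, 1442724_at, read 4.45, 4.62 and 4.67 at day 10, 5.28, 5.01 and 4.72 at day 20, and 5.13, 5.89 and 5.30 at day 30. It also rose at day 30, by 0.86 (limma adjusted p = 0.0302), but not when replicates 1 or 2 of day 10 or replicates 2 or 3 of day 30 were left out (limma adjusted p up to 0.0830). Its mean over the 9 arrays, 5.01, was below the median of all probe set means, 5.54.

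The brightest Meg3 probe set, 1439380_x_at, read 12.02, 11.87 and 13.20 at day 10, 13.19, 13.01 and 12.64 at day 20, and 13.10, 13.20 and 12.22 at day 30. The ages overlapped, with day 10 replicate 3 at the level of the highest day 30 array. The difference of 0.47 at day 30 against day 10 did not pass (95% interval -0.42 to 1.36, limma adjusted p = 0.48). Over the 11 Meg3 probe sets the day 30 minus day 10 difference ran from -0.34 to 0.55, and 0 were called. The within-array Dlk1 minus Meg3 signal was -1.76, -0.52 and -1.97 at day 10, -0.46, -0.24 and -0.48 at day 20, and -0.90, 0.01 and 0.53 at day 30. The ages overlapped, since day 10 replicate 2 lay above day 30 replicate 1, and the change of 1.29 at day 30 did not pass (exact permutation p = 0.0893, adjusted p = 0.134). Without day 10 replicate 2 the change was 1.74 and the adjusted p in the exact test was 0.0482. Elsewhere in the cluster, the noncoding RNAs Rian and Mirg differed by -0.35 (limma adjusted p = 0.52) and 0.16 (limma adjusted p = 0.78) at day 30 against day 10. The windows at the starts of both genes are shown because Dlk1 was called and Meg3 was not. Capitals mark TGACGTCA and the TATAAA box, which occurs in overlapping forward and reverse copies in Meg3. TGACGTCA was added to the search after windows had been seen. The share of all windows that hold it, 1.79%, therefore does not measure how unusual this match is. The windows lie at chr12:109452573-109452872 for Dlk1 and chr12:109540746-109541045 for the first of the Meg3 windows, both on the plus strand.
Dlk1: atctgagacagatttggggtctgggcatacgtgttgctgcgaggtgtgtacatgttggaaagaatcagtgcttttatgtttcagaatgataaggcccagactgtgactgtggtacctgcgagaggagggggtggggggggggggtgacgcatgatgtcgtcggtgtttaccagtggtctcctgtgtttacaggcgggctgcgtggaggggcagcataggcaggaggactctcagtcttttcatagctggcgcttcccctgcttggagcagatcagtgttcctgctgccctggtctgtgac
Meg3: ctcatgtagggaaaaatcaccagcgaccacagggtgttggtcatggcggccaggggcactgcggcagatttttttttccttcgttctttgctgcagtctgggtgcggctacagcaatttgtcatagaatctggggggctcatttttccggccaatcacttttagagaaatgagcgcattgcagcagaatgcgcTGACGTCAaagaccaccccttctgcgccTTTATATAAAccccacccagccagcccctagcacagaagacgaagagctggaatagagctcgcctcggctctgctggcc
The Dlk1 window held none of the 5 motifs searched and has 9 CpG pairs, against 13 in the Meg3 window shown. The second Meg3 window, chr12:109545148-109545447, also held none of the motifs and has 1 CpG pair. Any link between the windows and the signals was not tested.

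**Figure D2:**
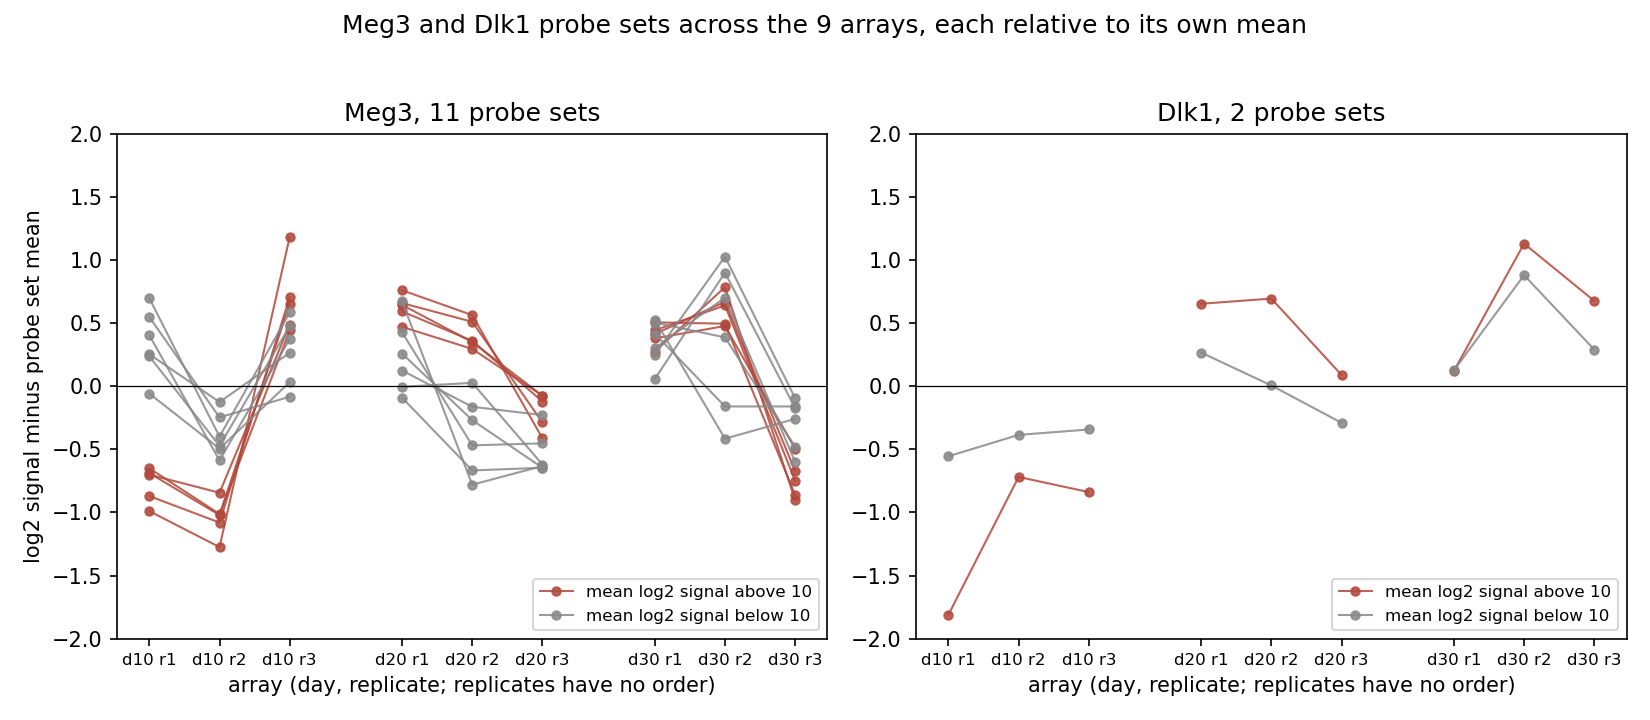
Log2 signal of every Meg3 and Dlk1 probe set in each of the 9 arrays, minus the probe set's own mean. Lines join the arrays of an age for 1 probe set, replicates have no order, and red marks a mean log2 signal above 10. Both Dlk1 probe sets are higher in all day 30 arrays than in all day 10 arrays, while the bright Meg3 probe sets are low in day 10 replicates 1 and 2 and in day 30 replicate 3.

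Cdkn1c encodes p57, an inhibitor of cyclin-dependent kinases that holds back the cell cycle in the embryo. It had the largest fall among the brightest probe sets of the 10 genes. Its probe set, 1417649_at, read 12.07, 12.06 and 11.73 in the day 10 arrays, 9.74, 9.66 and 9.12 in the day 20 arrays, and 10.58, 10.00 and 10.34 in the day 30 arrays. The 3 ages did not overlap, with day 20 the lowest. Cdkn1c fell by 2.45 at day 20 against day 10 (SE 0.21, a 5.45-fold fall, limma adjusted p = 0.000918) and by 1.65 at day 30 against day 10 (a 3.13-fold fall, limma adjusted p = 0.00219). Both calls held without any 1 array. At day 30 against day 20 it was 0.80 higher, which did not pass (limma adjusted p = 0.26). The later change minus the earlier change was 3.24 (SE 0.36, limma adjusted p = 0.0280), so the change from day 20 to day 30 differed from that between day 10 and day 20, and Cdkn1c was 1 of 10 genes called there, against 0.231% of all genes. That call was lost without day 20 replicates 1, 2 or 3 or day 30 replicates 1 or 3, where the adjusted p in limma was 0.0586, 0.154, 0.0813, 0.0708 and 0.0781.

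Of the 6 other inhibitors of cyclin-dependent kinases, 1 rose and 0 fell at day 30 against day 10, where 10.3% of all genes were called higher and 8.91% lower. Cdkn2b, which encodes p15, rose by 2.59 (limma adjusted p = 0.0202), a call lost when replicate 2 of day 10 or replicates 2 or 3 of day 30 were left out (limma adjusted p up to 0.0684). Of 14 measured cell cycle genes, 0 rose and 3 fell, against the same shares of all genes, with a median difference of -2.10. With replicate 3 of day 10 left out 14 fell, and with replicate 1 of day 30 left out 0 fell. The mean over these genes was 9.96, 10.31 and 8.20 in the day 10 arrays, 9.03, 7.41 and 8.46 in the day 20 arrays, and 7.08, 7.39 and 8.10 in the day 30 arrays, so the low day 10 array overlapped the later ages. The proliferation marker Mki67 averaged 8.10 at day 30 and 10.09 at day 10, a difference of -1.98 (limma adjusted p = 0.086). Mki67 was called lower when replicate 3 of day 10 was left out (limma adjusted p = 0.0197).

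Grb10 encodes an adaptor that binds the insulin and IGF1 receptors and dampens their signal. Its brightest probe set, 1425458_a_at, read 11.03, 11.89 and 11.46 at day 10, 10.63, 11.12 and 10.71 at day 20, and 10.00, 11.09 and 10.50 at day 30. The difference of -0.93 at day 30 against day 10 did not pass (SE 0.31, limma adjusted p = 0.080), and day 30 replicate 2 overlapped the lowest day 10 array. Without day 30 replicate 2 the difference was -1.21 with an adjusted p of 0.0397 in limma. A dimmer probe set, 1425457_a_at, averaged 7.04 ± 0.58 at day 10, 6.21 ± 0.05 at day 20 and 5.78 ± 0.20 at day 30 (SD, n = 3 each). It fell by 1.26 (limma adjusted p = 0.0145), with no overlap between day 30 and day 10, but not without day 30 replicate 1 (limma adjusted p = 0.0521). The third, 1430164_a_at, differed by -0.88 (limma adjusted p = 0.078) and was called lower without day 10 replicate 1 (limma adjusted p = 0.00886).

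Peg3 and Plagl1 encode zinc finger proteins that bind DNA, and Plagl1 is known to act on other imprinted genes. The brightest Peg3 probe set, 1433924_at, read 12.56, 12.24 and 12.69 in the day 10 arrays, 11.89, 11.31 and 11.58 in the day 20 arrays, and 11.45, 11.32 and 11.39 in the day 30 arrays. Day 10 lay above both later ages with no overlap, and the later ages overlapped. Peg3 fell by 1.11 at day 30 against day 10 (SE 0.17, limma adjusted p = 0.00436), and this call held without any 1 array. It fell by 0.90 at day 20 against day 10 (limma adjusted p = 0.0165), a call lost when replicate 1 of day 10 or replicates 2 or 3 of day 20 were left out (limma adjusted p up to 0.0580). Probe sets 1417355_at and 1417356_at also fell at day 30, by 1.81 (limma adjusted p = 0.00870) and by 1.41 (limma adjusted p = 0.00651). The last pair, 1447731_at and 1447732_x_at, stayed near the bottom of the scale, with means of 3.20 and 3.11 at day 30 and 3.16 and 3.20 at day 10. The Peg3 start window, chr7:6730370-6730669 on the minus strand, is shown because it was the 1 member window with the Plagl1 site GGGGCCCC, which 1.08% of all windows hold. Capitals mark that motif and TGACGTCA, which was added to the search after windows had been seen.
Peg3: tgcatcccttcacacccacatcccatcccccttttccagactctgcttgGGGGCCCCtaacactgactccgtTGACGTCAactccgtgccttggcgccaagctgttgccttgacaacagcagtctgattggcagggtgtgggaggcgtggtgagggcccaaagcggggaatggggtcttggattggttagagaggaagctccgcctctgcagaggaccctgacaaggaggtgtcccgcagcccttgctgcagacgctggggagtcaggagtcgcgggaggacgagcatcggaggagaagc

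The brightest Plagl1 probe set, 1426208_x_at, read 13.41, 13.15 and 12.92 at day 10, 13.56, 13.66 and 13.35 at day 20, and 13.57, 13.62 and 13.71 at day 30. All day 30 arrays were above all day 10 arrays, but the difference of 0.47 did not pass (95% interval 0.15 to 0.79, limma adjusted p = 0.056). Without day 10 replicate 1 the difference was 0.59 with an adjusted p of 0.0252 in limma. The other probe sets, 1450533_a_at and 1438588_at, differed by 1.33 (limma adjusted p = 0.097) and 0.48 (limma adjusted p = 0.43).

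Mest encodes an enzyme of the hydrolase fold family and is used as a marker of mesoderm. Its probe set, 1423294_at, read 12.56, 12.47 and 11.69 at day 10, 10.67, 10.67 and 10.43 at day 20, and 11.35, 11.34 and 11.39 at day 30. Day 20 was the lowest age, and no age overlapped another. Mest fell by 1.65 at day 20 against day 10 (SE 0.21, limma adjusted p = 0.00461), a call that held without any 1 array. It fell by 0.88 at day 30 against day 10 (limma adjusted p = 0.0277), a call that was lost without day 10 replicates 1 or 2 or any of the day 30 arrays (adjusted p from 0.0735 to 0.0877 in limma). It was 0.77 higher at day 30 than at day 20, which did not pass (limma adjusted p = 0.28). Without day 10 replicate 3 this difference passed (limma adjusted p = 0.0414). The later minus the earlier change was 2.43 and did not pass (limma adjusted p = 0.064). It passed in 6 of 18 other settings (limma adjusted p from 0.00474 to 0.282 over all of them).

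**Figure D3:**
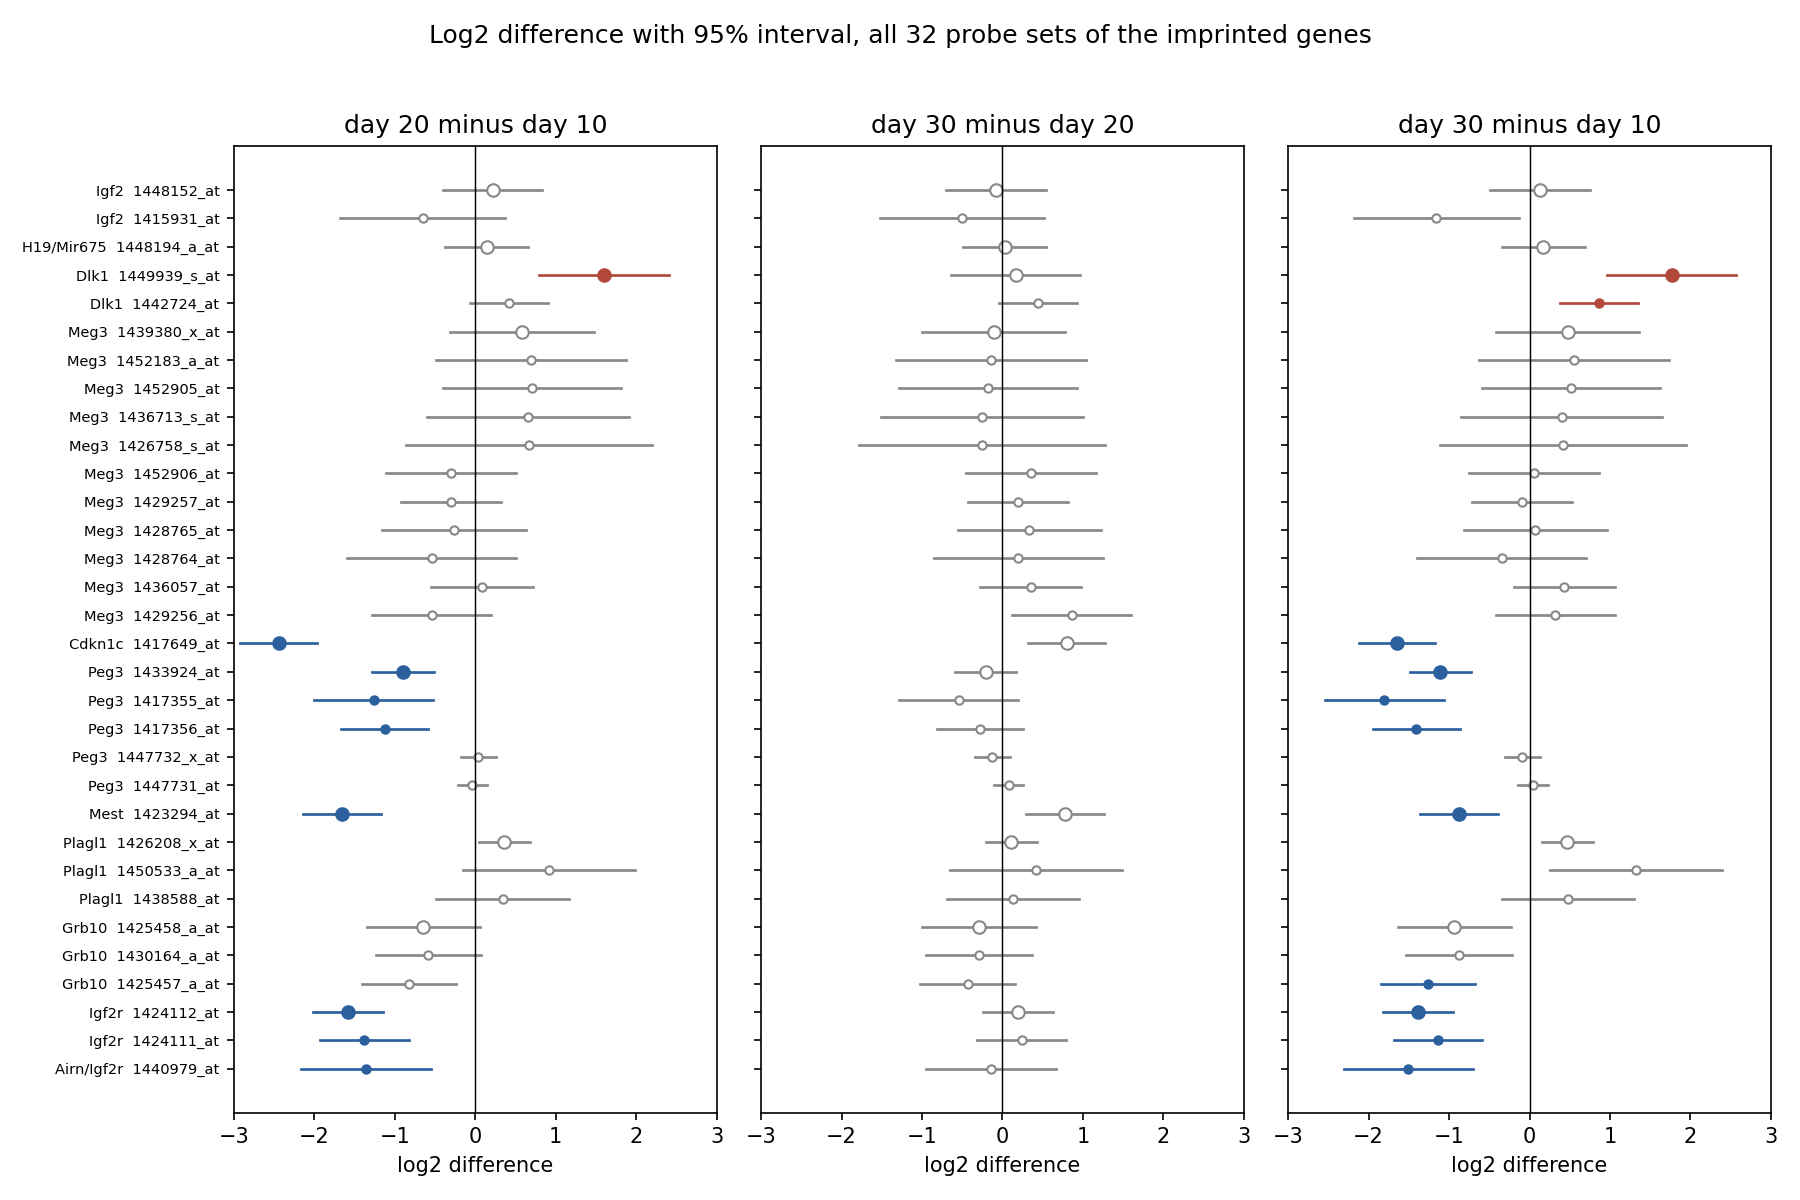
Log2 difference of all 32 probe sets between each pair of ages, with 95% intervals, red for those that rose, blue for those that fell and open grey for those that did not pass. In the panel of day 30 minus day 10, the 2 that rose are Dlk1 probe sets, and the 9 that fell belong to Cdkn1c, Grb10, Igf2r (1 shared with Airn), Mest and Peg3.

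**Figure D4:**
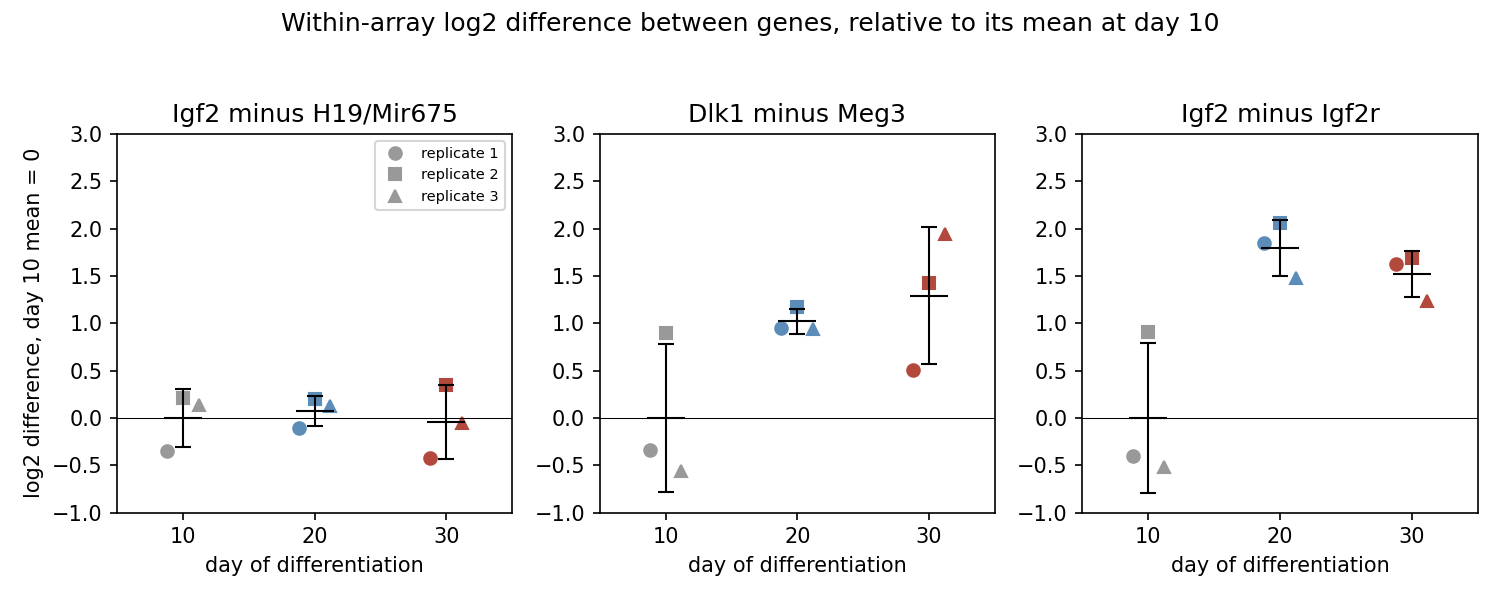
Within-array log2 difference of Igf2 and H19, Dlk1 and Meg3, and Igf2 and Igf2r in each array at day 10, 20 and 30, with the day 10 mean set to 0. Points are arrays, short lines are means and whiskers are SD. Igf2 minus Igf2r lies higher in all day 20 and day 30 arrays than in all day 10 arrays, while the ages overlap for the other pairs.

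Of 24 other genes in the clusters that hold the 10 genes, 19 were measured. Of these neighbours 2 rose and 3 fell at day 30 against day 10, with a median difference of -0.06, where 10.3% of all genes were called higher and 8.91% lower, so the counts do not set this list apart. Kcnq1, a potassium channel gene in the cluster of Cdkn1c, read 5.50, 5.83 and 5.87 at day 10, 7.76, 7.95 and 8.41 at day 20, and 8.10, 8.58 and 8.32 at day 30. It rose by 2.60 (limma adjusted p = 0.000263), the opposite direction to Cdkn1c. Kcnq1ot1, the noncoding RNA transcribed through Kcnq1 in antisense that silences this cluster on the paternal copy, fell by 1.64 (limma adjusted p = 0.0346). That call was lost without day 10 replicate 2, day 20 replicates 1 or 2 or any day 30 array (highest adjusted p = 0.109 in limma). Phlda2, a growth restraining gene of the same cluster, differed by -1.29 (limma adjusted p = 0.109). Osbpl5, also of that cluster, rose by 1.46 (limma adjusted p = 0.00386), and Nap1l4 fell by 0.45 (limma adjusted p = 0.0125). Usp29, the neighbour of Peg3, fell by 1.06 (limma adjusted p = 0.00259).

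Of 22 measured imprinted genes of other clusters, 0 rose and 7 fell at day 30 against day 10, with a median difference of -0.60. Over all genes, 10.3% were called higher and 8.91% lower, with a median difference of -0.03. Slc38a4, an amino acid transporter gene, averaged 9.94 ± 0.05 at day 30 and 10.74 ± 0.13 at day 10 (SD, n = 3 each) and fell by 0.81 (limma adjusted p = 0.00295). Peg10 fell by 1.34 (limma adjusted p = 0.00522), Mcts2 by 0.98 (limma adjusted p = 0.00606) and Inpp5f by 0.77 (limma adjusted p = 0.00930). The Peg10 probe set was dim, with means of 5.21 at day 10 and 3.87 at day 30. Both lie below the median of all probe set means, 5.54. Without 1 array the number that fell ran from 5 to 10 and the number that rose from 0 to 1, where the 1 appeared on leaving out replicate 3 of day 10 or replicate 1 of day 30.

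Of 15 measured genes of IGF and insulin signalling, 3 rose and 4 fell at day 30 against day 10, with a median difference of 0.40. The shares over all genes were 10.3% higher and 8.91% lower. Igf2bp1 and Igf2bp3 encode proteins that bind Igf2 messenger RNA and were named for it. Igf2bp1 read 10.07, 9.76 and 9.58 at day 10, 8.02, 7.79 and 8.18 at day 20, and 6.97, 6.78 and 7.07 at day 30. It was lower at each age without overlap and fell by 2.87 in all (limma adjusted p = 6.23e-05), while Igf2bp3 fell by 2.17 (limma adjusted p = 7.14e-05). The Igf2bp1 step from day 20 to day 30, -1.06, did not pass on its own (limma adjusted p = 0.0601). Igf1, which encodes the IGF ligand that dominates after birth, read 4.38, 4.07 and 4.65 at day 10, 8.02, 6.23 and 7.98 at day 20, and 8.63, 6.95 and 9.44 at day 30. It rose by 3.97 (limma adjusted p = 0.00693), and Igfbp7, which encodes a secreted binding protein, rose by 3.84 (limma adjusted p = 0.00052). The receptor genes Igf1r and Insr differed by -0.73 (limma adjusted p = 0.24) and 0.73 (limma adjusted p = 0.42). Insr was called higher when day 10 replicate 3 was left out (limma adjusted p = 0.00279). Without day 10 replicate 3 the number of list genes that rose was 5. The rise of Igf1 and Igfbp7 ran alongside that of the fibroblast markers, whose summary is given above.

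Of 16 measured genes for proteins that set or keep imprints, 0 rose and 5 fell at day 30 against day 10, with a median difference of -0.45. The shares over all genes were 10.3% higher and 8.91% lower. Trim28, the corepressor that holds imprints with zinc finger proteins, averaged 10.88 ± 0.06 at day 30 and 11.62 ± 0.12 at day 10 (SD, n = 3 each) and fell by 0.75 (limma adjusted p = 0.00333). Zfp57, the zinc finger protein that recognises methylated imprint control regions, fell by 1.02 (limma adjusted p = 0.00859). Setdb1 fell by 0.48 (limma adjusted p = 0.0183), and the DNA methyltransferase gene Dnmt3b fell by 1.44 (limma adjusted p = 0.0196). The Setdb1 call was lost without replicate 2 of day 10 or replicates 1 or 3 of day 30 (limma adjusted p up to 0.0658). That of Dnmt3b was lost without replicates 1 or 3 of day 30 (limma adjusted p up to 0.0690). Ctcf, the insulator protein that separates Igf2 from the shared enhancers on the maternal copy, differed by -0.18 (limma adjusted p = 0.372). Leaving out replicate 2 of day 10 left 3 that fell, leaving out replicate 1 or 3 of day 30 left 2, and 1 gene rose when replicate 3 of day 10 was left out.

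**Figure D5:**
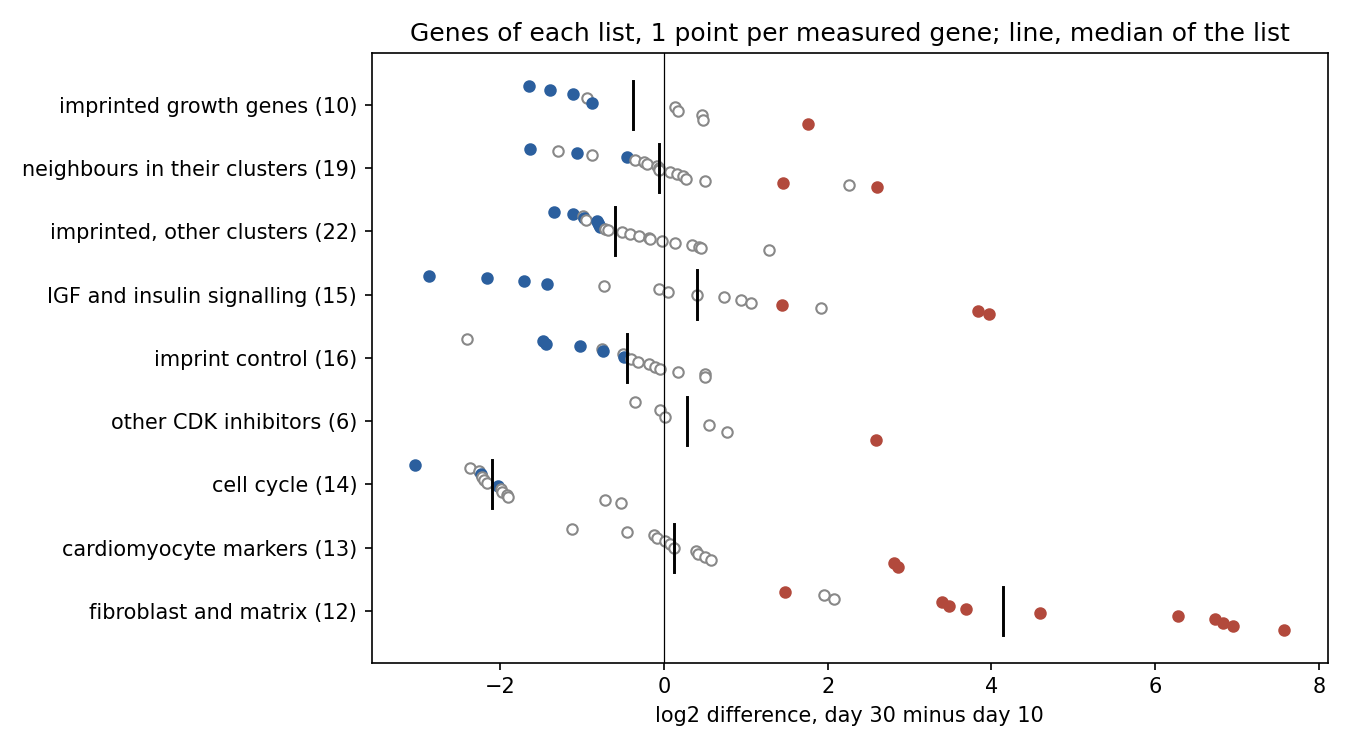
Day 30 minus day 10 log2 difference of the measured genes of each list, 1 point per gene (red rose, blue fell, open grey did not pass), with a line at each list's median. The fibroblast and matrix genes sit furthest to the right, with a median of 4.14, and the imprinted genes of other clusters have a median of -0.60.

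For each of the 4 member genes that changed by at least 1 at day 30, the 3 genes with the most alike profile over the 9 arrays were found among 9087 genes above the median signal. Likeness was the root mean square difference of centred log2 profiles, so a smaller value is closer. For Dlk1, whose own profile had a root mean square of 0.89, they were Adamts1 (0.198), Arhgef6 (0.221) and Rftn2 (0.235). For Cdkn1c (1.04) they were Idi1 (0.327), Dock9 (0.413) and Rnd2 (0.415). For Peg3 (0.513) they were 2700038G22Rik (0.0774), Pus10 (0.137) and Syne4 (0.142), and for Igf2r (0.734) they were Cttnbp2nl (0.137), Arhgap1 (0.183) and Auts2 (0.221). Idi1, the nearest to Cdkn1c, shared its low day 20 level, with differences of -2.42 at day 20 and -1.44 at day 30 against day 10.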

How the data were processed

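Per the labels, RNA was taken up in TRIzol, amplified and labelled with biotin by a 3-prime priming kit, and hybridised to 1 array per sample. The authors deposited log2 signals. Their normalization is not given in the sources used here, and the base of the logarithm was inferred from values of 2.77 to 14.52. They were used as deposited. Of 45101 probe sets, 64 controls were left out, and genes were named from the platform annotation, where 34945 probe sets had 1 symbol, 932 several and 9160 none. Of those with 1 symbol, 34741 were found in RefSeq by gene ID and 0 symbols differed.

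A mean per age was fitted to all 9 arrays and all probe sets with limma 3.58.1 in R 4.3.3 (lmFit, eBayes, 6 residual and 2.19 prior degrees of freedom), two-sided, with Benjamini-Hochberg adjustment over 45037 probe sets and a threshold of 0.05. Gene pairs were tested by exact permutation. The fit was tested on simulated data. The members and gene lists were chosen with earlier results of these data known. All 10 members are named, with the 3 nearest profiles of each member that passed with a log2 difference of at least 1, up to 4 called genes of each pathway list in order of adjusted p, and fixed reference genes such as Igf1r, Airn and Mki67. Whether replicate numbers pair the arrays was checked by correlating same-numbered deviations from the age means. They ran from 0.19 to 0.50 between day 20 and day 30 (3 of 3 above 0.1), which was taken as pairing of these ages, but from -0.012 to 0.15 between day 10 and day 20 (1 of 3) and from -0.22 to -0.034 between day 10 and day 30 (0 of 3), where it was not. Differently numbered arrays of day 20 and day 30 ran from -0.45 to 0.18, close to the lowest same-numbered value, so this pairing was an assumption. Alternatives covered normalization, dim probe sets, gene representation, variance model, array weights, 2-age fits, a replicate block and leaving out each array. Other scalings moved the median of all probe sets by less than 0.1.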

Additional observations from a re-analysis of the deposited data

Results flagged for a closer look

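For Cdkn1c, the change from day 20 to day 30 differed from the change between day 10 and day 20 by a direct test, the later change minus the earlier change being 3.24 (limma adjusted p = 0.0280). The call was lost in 5 of the 9 fits that left out 1 array, those without any of the day 20 arrays or without replicate 1 or 3 of day 30 (limma adjusted p from 0.0586 to 0.154). The signal was 0.80 higher at day 30 than at day 20 and 2.45 lower at day 20 than at day 10 on the log2 scale, with values in every array as given above.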

How the results depend on the processing

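Over 20 other settings, 552 of 610 differences of single genes kept their direction and side of the threshold, 22 lost a call, 17 gained one and 19 reversed. The calls at day 30 against day 10 of Cdkn1c, Igf2r, Peg3 and Dlk1 held in all 19 settings that tested them. Alternatives that used only probe sets without a suffix letter, the replicate block with only day 20 and day 30, and the mean with shared probe sets were added after the data had been seen. The number of genes called for the later minus the earlier change was 2 without dim probe sets, with 1 probe set per gene, with the mean of probe sets and with an intensity trend, 3 with array weights, and 0 to 3 without 1 array. With only the ages compared, 3 genes and 4 probe sets were called at day 20 against day 10. Without 1 array, genes called ran from 4 to 5 (day 30 against day 10), 3 to 5 (day 20 against day 10), 0 to 1 (day 30 against day 20) and 4 to 5 (any age), and probe sets from 7 to 12, 3 to 8 and 0 to 1 in the first 3 of these. The lowest probe set count at day 30 against day 10, 7, came without day 30 replicate 3, and that at day 20, 3, without day 20 replicate 2. The cause was not tested. Igf2 minus Igf2r changed by 0.75 with the mean of probe sets annotated to 1 gene (adjusted exact p = 0.129), by 0.83 with shared probe sets included (adjusted exact p = 0.146) and by 1.26 to 1.97 without 1 array, and the cause was not tested. With the replicate block its change was again 1.52, but the 36 arrangements within numbers allow no adjusted exact p below the 0.0833 obtained, so that test could not pass. The block called 6 genes and 13 probe sets at day 30 against day 10, Grb10 being added (limma adjusted p = 0.00794, and 0.0350 at day 20 against day 10). At day 30 against day 20, where the numbers were taken to pair the arrays, the block called 0 of the 10 genes. Over all probe sets it called 2 with all arrays and 159 with only these ages, against 61 without it. Dlk1 minus Meg3 changed by 0.97 to 1.74 and Igf2 minus H19 by -0.24 to 0.15 without 1 array, the sign of the last turning in 3 cases (0.06, 0.03 and 0.15). Signs also turned for differences that had not passed. Igf2 at day 30 against day 10 was -0.51 with the mean of probe sets, -0.32 with array weights and -0.076 to 0.41 without 1 array, and at day 20 against day 10 it was -0.22 with the mean of probe sets and -0.19 with array weights. H19 at day 30 against day 10 was -0.10 with array weights and -0.079 to 0.35 without 1 array, and at day 20 against day 10 it was -0.15 with array weights and -0.11 to 0.32 without 1 array. At day 30 against day 20, leaving out 1 array gave -0.29 to 0.042 for Igf2, -0.11 to 0.13 for H19, -0.29 to 0.20 for Meg3 (0.12 with the mean of probe sets) and -0.081 to 0.42 for Dlk1. Signal over background could not be judged, since only processed values were used, and 9 arrays limit the precision.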
